A study of Mus musculus with 10 samples.

Results

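Expression of 10 immediate early response genes was followed mouse by mouse in gastrocnemius muscle, namely Fos, Fosb, Jun, Junb, Atf3, Egr1, Myc, Ier2, Ier3 and Socs3. They are 10 of the 49315 genes in the count table, taken by their symbols, and all 10 had enough counts to be among the 14714 genes tested. Atf3 and Socs3 were chosen by their measured levels, which had been noted as highest in the mouse AHRmko-34, so their levels in that mouse, and any genotype difference that includes it, are given below as a description without a test.

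Immediate early genes are transcribed within minutes of a stimulus, without new protein synthesis, and their mRNAs are short-lived. Many encode transcription factors: FOS and JUN family proteins pair through leucine zippers to form the AP-1 factor, EGR1 is a zinc finger factor, and MYC drives growth programmes. In skeletal muscle these genes are known to respond to contraction, stretch, injury and handling of the tissue, and SOCS3, a feedback inhibitor of cytokine receptors that signal through JAK kinases and STAT3, rises with cytokine exposure.

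RNA came from the gastrocnemius of 10 male mice on a C57BL6J background, 5 AHR-floxed (AHRfl) and 5 AHR-muscle knockout (AHRmko). AHRfl mice carry loxP sites around an exon of Ahr, the gene of the aryl hydrocarbon receptor, and AHRmko mice carry in addition the HSA-MCM transgene, a tamoxifen-dependent MerCreMer recombinase under the human ACTA1 promoter, which limits deletion to muscle fibres and leaves the receptor in the other cells of the tissue. Every mouse of both genotypes had inhaled cigarette smoke for 16 weeks, in 2 sessions of 1 h a day on 5 days a week at 220 ± 80 mg/m3, starting 4 weeks after tamoxifen, and muscle was taken 72 h after the last exposure, both times as the labels give them. The text of the study also gives a shorter interval after tamoxifen, and the time of harvest as a range of hours that ends at the value above. The mice are described there as aged, without a figure, no air-exposed mouse is among the libraries, and values are from 1 library per mouse.

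Sequences upstream of the transcription start are shown for the 3 members whose stretch outside exons holds the core GCGTG, which is bound by the dimer of the deleted transcription factor. Fosb, which also varied widely, holds the core only in the part of its window that overlaps an exon and is not shown. RefSeq promoter windows, 250 bases before to 50 bases after the start in GRCm38.p6, were found for 7 of the 10 members (Atf3, Fos, Fosb, Ier3, Jun, Junb and Socs3), and those of Egr1, Ier2 and Myc were not analysed here. The stretches below exclude annotated exons and run 5′ to 3′ on the strand of the gene, with GCGTG or its reverse complement CACGC in capitals. They lie at chr12:85473640-85473889 on the plus strand (Fos), chr8:84978749-84978998 on the minus strand (Junb) and chr1:191183341-191183583 on the minus strand (Atf3, where longer transcripts of the gene begin further upstream).
Fos: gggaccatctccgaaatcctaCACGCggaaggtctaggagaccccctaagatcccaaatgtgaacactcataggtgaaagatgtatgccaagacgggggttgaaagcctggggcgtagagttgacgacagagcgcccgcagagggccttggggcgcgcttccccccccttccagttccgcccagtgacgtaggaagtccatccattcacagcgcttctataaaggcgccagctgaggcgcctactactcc
Junb: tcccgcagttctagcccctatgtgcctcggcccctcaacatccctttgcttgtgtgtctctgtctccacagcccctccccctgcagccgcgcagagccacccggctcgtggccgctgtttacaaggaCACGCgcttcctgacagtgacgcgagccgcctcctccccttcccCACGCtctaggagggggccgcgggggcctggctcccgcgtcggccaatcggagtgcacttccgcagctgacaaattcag
Atf3: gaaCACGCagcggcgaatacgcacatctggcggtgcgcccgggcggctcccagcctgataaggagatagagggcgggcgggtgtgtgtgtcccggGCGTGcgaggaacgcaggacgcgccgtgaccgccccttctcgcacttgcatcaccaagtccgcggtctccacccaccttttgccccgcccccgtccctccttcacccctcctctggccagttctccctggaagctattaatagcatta

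The core GCGTG, searched on both strands, was present in the windows of 4 of the 7 members, namely Atf3, Fos, Fosb and Junb, whereas 32.4% of all 32851 RefSeq promoter windows held it. Its letters also occur inside longer sites of other factors, EGR sites included. The STAT-type site TTCNNNGAA was found in the window of 1 member, Socs3, and in 8.3% of all windows. It started at -154 relative to the RefSeq transcription start. Longer annotated transcripts of Socs3 begin further upstream, so the site lies inside the annotated gene, and this stretch was not limited to bases outside exons. The site is shown in capitals with its flanks, on the minus strand at chr11:117969502-117969530 in GRCm38.p6.
Socs3: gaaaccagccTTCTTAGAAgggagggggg

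The full cyclic AMP response element TGACGTCA (1.79% of all windows), the AP-1 site TGACTCA (5.2%) and the CArG box bound by serum response factor (1.63%) were in 0 of the 7 windows. These matches describe letters in a short window and do not show binding, and sites outside the window were not searched.

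Total counts lay between 30393035 and 37954388 per mouse. Ahr, whose gene count sums all exons and not the floxed one alone, had 43 to 110 counts in AHRfl and 31 to 80 in AHRmko mice (log2 fold change -0.35, SE 0.255, adjusted p = 0.844, edgeR quasi-likelihood test). Esr1, part of which is present in the MerCreMer fusion, had 544 to 658 against 9770 to 24975 counts (adjusted p = 0.000433). Esr1 was also the only gene called over the whole table, 1 of 14714 or 0.0068%. The Y-linked Ddx3y had 1852 to 2723 counts in every mouse, as the label of male mice requires. Xist, the transcript of the inactive X chromosome, had 44 to 75 counts in 5 libraries (AHRfl-11, AHRfl-15, AHRfl-33, AHRmko-9 and AHRmko-22) and 0 to 3 in the other 5 (AHRfl-12, AHRfl-13, AHRmko-8, AHRmko-19 and AHRmko-34). The labels name no batch that matches this division. In each library the 6 fixed markers of muscle fibres summed to 99300 to 133000 CPM, the counts of a gene scaled to the normalised library size.

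The main feature of the 10 genes was their spread between mice of the same genotype. CPM were normalised by the trimmed mean of M-values (TMM), and n is 5 mice per genotype throughout. AHRfl-12 and AHRmko-34, 1 mouse of each genotype, were high for most members, and AHRfl-15 was low. In whole muscle a change in the number of cells of a type and a change in RNA per cell cannot be told apart.

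**Figure D1:**
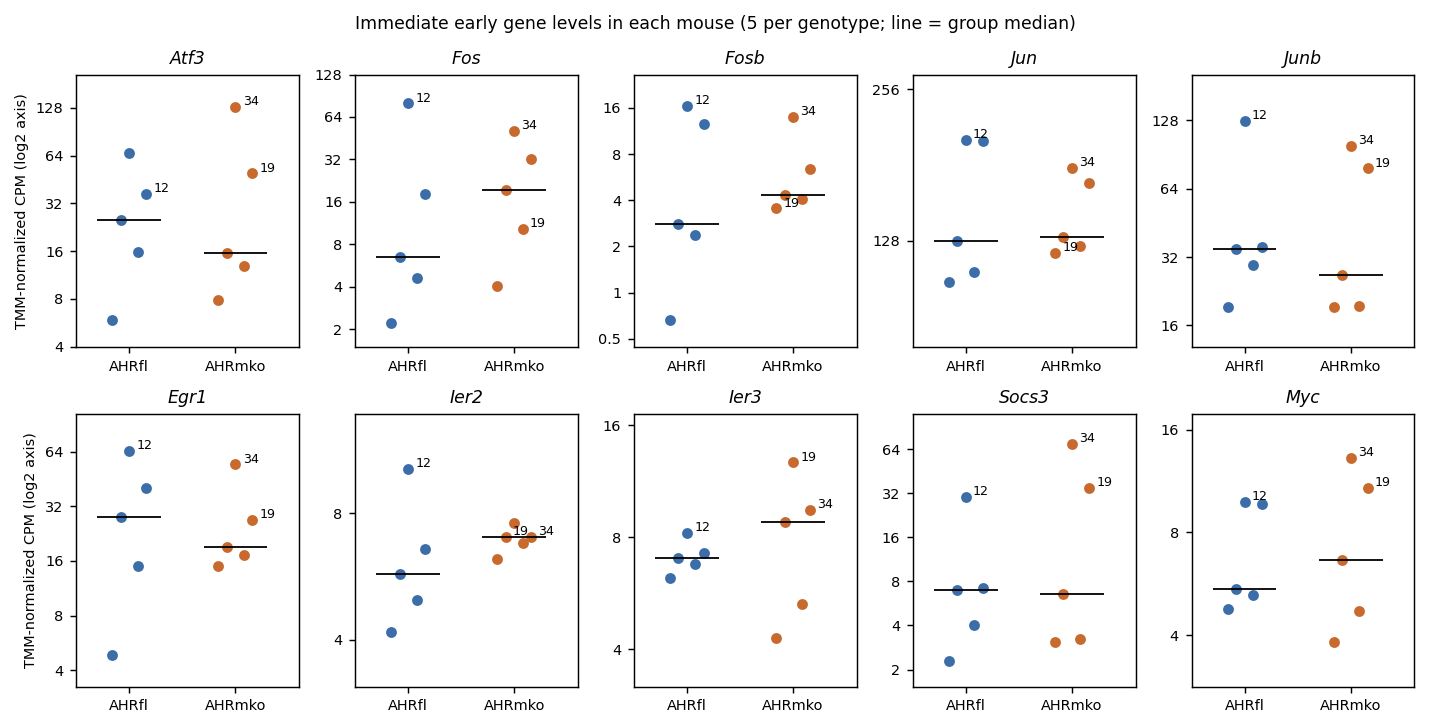
Level of each gene in each mouse as TMM-normalised CPM on a log2 axis, with blue points for the 5 AHRfl mice, orange points for the 5 AHRmko mice, a line at each group median, and the numbers of mice 12, 19 and 34 beside their points. AHRfl-12 and AHRmko-34 sit at or near the top of most panels, Fos running from 2.23 to 80.0 CPM and Jun only from 106 to 203 CPM, and the genotypes overlap in all 10.

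Fos (ENSMUSG00000021250, chr12:85473890-85477273, plus strand, GRCm38), the partner that gives AP-1 its transient activity, had the largest ratio between mice, with a highest level 35.9 times the lowest. In AHRfl mice 11, 12, 13, 15 and 33 it stood at 4.63, 80.0, 18.1, 2.23 and 6.52 CPM. In AHRmko mice 8, 9, 19, 22 and 34 it stood at 19.3, 4.07, 10.3, 32.0 and 51.3 CPM. The highest and the lowest of the 10 mice were thus both AHRfl, and AHRfl-12 was at 14.3 times the median of the other AHRfl mice. The group means were 22.3 ± 32.8 CPM (SD, n = 5) in AHRfl and 23.4 ± 18.8 CPM (SD, n = 5) in AHRmko. The log2 fold change between genotypes was 0.07 (SE 1.05, 95% interval -2.34 to 2.47, adjusted p = 0.996, edgeR quasi-likelihood test), and a two-sided exact permutation test over the 252 assignments of mice gave p = 0.5.

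Fosb (ENSMUSG00000003545, chr7:19302696-19310051, minus strand) encodes a related FOS protein and had the lowest median CPM per kb of the members, with 23 to 573 counts per mouse. It stood at 2.39, 16.5, 12.6, 0.658 and 2.78 CPM in AHRfl mice 11, 12, 13, 15 and 33, and at 4.31, 6.35, 3.54, 4.08 and 13.9 CPM in AHRmko mice 8, 9, 19, 22 and 34. AHRfl-12, AHRmko-34 and AHRfl-13 were well above the rest, and AHRfl-15 well below. The log2 fold change was -0.12 (SE 0.81, 95% interval -1.97 to 1.72, adjusted p = 0.992), with p = 0.611 by the exact permutation test.

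Jun (ENSMUSG00000052684, chr4:95049034-95052222, minus strand), the main partner of FOS proteins, was the steadiest of the AP-1 genes, with a highest level 1.91 times the lowest. AHRfl mice 11, 12, 13, 15 and 33 had 106, 203, 202, 111 and 128 CPM. AHRmko mice 8, 9, 19, 22 and 34 had 125, 130, 121, 167 and 179 CPM. Its 2 highest mice were AHRfl-12 and AHRfl-13, followed by AHRmko-34. The log2 fold change of -0.05 had an SE of 0.213 and a 95% interval from -0.53 to 0.42 (adjusted p = 0.98, edgeR), so that among AP-1 members only for Jun did the interval exclude a change of 1 log2 unit in either direction. Jun overlaps the antisense gene Junos, which had 127 to 246 counts against 3731 to 7163 for Jun.

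Junb (ENSMUSG00000052837, chr8:84974484-84978718, minus strand), a JUN protein with weaker activating capacity that muscle also uses in fibre growth, separated 3 mice from the rest. It was at 34.8, 127, 35.3, 19.3 and 29.4 CPM in AHRfl mice 11, 12, 13, 15 and 33. It was at 19.4, 26.7, 78.5, 19.2 and 98.8 CPM in AHRmko mice 8, 9, 19, 22 and 34. Only AHRfl-12, AHRmko-34 and AHRmko-19 exceeded 35.3 CPM. The means were 49.1 ± 43.9 CPM in AHRfl and 48.5 ± 37.4 CPM in AHRmko (SD, n = 5 each), and the log2 fold change was -0.02 (SE 0.695, 95% interval -1.61 to 1.57, adjusted p = 0.999). The 3′ end of Junb overlaps Prdx2 on the opposite strand (3271 to 4763 counts), and because the strand setting of the counting is not stated, reads in the overlap cannot be told apart.

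Atf3 (ENSMUSG00000026628, chr1:191170296-191218039, minus strand), a stress-induced factor of the ATF family that pairs with JUN proteins, was at 130 CPM in AHRmko-34, the value known when it was picked. The other AHRmko mice 8, 9, 19 and 22 had 12.9, 7.87, 49.5 and 15.5 CPM. AHRfl mice 11, 12, 13, 15 and 33 had 15.7, 36.6, 66.7, 5.92 and 25.1 CPM. AHRmko-34 was at 9.16 times the median of the other AHRmko mice, and the second highest mouse was AHRfl-13 and not AHRfl-12. Over all 10 mice the log2 fold change, as a description, was 0.52. Without AHRmko-34 it was -0.49 (SE 0.795, 95% interval -2.35 to 1.38, adjusted p = 0.907, edgeR). As the gene was picked for its level in that mouse, the lower value without it follows from the choice. With the covariate for Xist counts described below it was -0.0361 and with limma-voom 0.14, AHRmko-34 kept in both.

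Egr1 (ENSMUSG00000038418), the zinc finger factor, varied most among AHRfl mice. It was at 15.1, 64.7, 40.5, 4.86 and 27.8 CPM in AHRfl mice 11, 12, 13, 15 and 33, and at 17.3, 15, 26.9, 19.2 and 54.5 CPM in AHRmko mice 8, 9, 19, 22 and 34. The highest level was 13.3 times the lowest, both in AHRfl mice, while AHRmko mice spanned a factor of 3.64. The log2 fold change was -0.20 (SE 0.656, 95% interval -1.71 to 1.30, adjusted p = 0.978), with p = 0.913 by the exact permutation test.

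Myc (ENSMUSG00000022346, chr15:61985391-61990374, plus strand) varied less, by a factor of 3.46. AHRfl mice 11, 12, 13, 15 and 33 had 5.46, 9.81, 9.67, 4.78 and 5.25 CPM. AHRmko mice 8, 9, 19, 22 and 34 had 3.81, 4.72, 10.8, 6.65 and 13.2 CPM. The 4 mice AHRmko-34, AHRmko-19, AHRfl-12 and AHRfl-13 stood above all others. The log2 fold change was 0.16 (SE 0.372, 95% interval -0.67 to 0.99, adjusted p = 0.964).

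Ier2 and Ier3 encode small immediate early proteins, a nuclear regulator and a survival factor, and their SDs between mice were below those of the other members except Jun. Ier2 (ENSMUSG00000053560, chr8:84661331-84662852, minus strand) was at 4.18, 10.2, 5.75, 4.98 and 6.58 CPM in AHRfl mice 11, 12, 13, 15 and 33, and at 6.78, 6.24, 7.02, 7.57 and 7.03 CPM in AHRmko mice 8, 9, 19, 22 and 34. The AHRmko mice lay within a factor of 1.21 of each other, between the extremes set by AHRfl-11 and AHRfl-12. Its log2 fold change was 0.13 (SE 0.196, 95% interval -0.30 to 0.55, adjusted p = 0.939). Without AHRfl-12 it was 0.37 with an adjusted p of 0.671. Ier3 (ENSMUSG00000003541, chr17:35821684-35822923, plus strand) was at 7.25, 8.22, 7.02, 6.78 and 6.21 CPM in AHRfl mice 11, 12, 13, 15 and 33, and at 4.28, 5.29, 12.7, 8.78 and 9.45 CPM in AHRmko mice 8, 9, 19, 22 and 34. Here the AHRfl mice were close together (factor 1.32), and both the highest mouse, AHRmko-19, and the lowest, AHRmko-8, were AHRmko. Its log2 fold change was 0.19 (SE 0.252, 95% interval -0.36 to 0.74, adjusted p = 0.928).

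Socs3 (ENSMUSG00000053113, chr11:117966079-117970047, minus strand), the cytokine feedback inhibitor whose STAT-type site is shown above, was at 69.6 CPM in AHRmko-34, the other value known beforehand. In AHRmko mice 8, 9, 19 and 22 it was at 6.51, 3.23, 34.7 and 3.08 CPM. In AHRfl mice 11, 12, 13, 15 and 33 it was at 7.16, 30.1, 4.01, 2.29 and 6.95 CPM. The 3 mice AHRmko-34, AHRmko-19 and AHRfl-12 were at 30.1 CPM or more, and no other mouse exceeded 7.16 CPM. AHRmko-19 alone was at 7.13 times the median of the other AHRmko mice. Over all mice the log2 fold change, as a description, was 1.21, and without AHRmko-34 it was 0.23 (SE 1.03, 95% interval -2.19 to 2.64, adjusted p = 0.974, edgeR). As for Atf3, the lower value without that mouse follows from the choice of the gene. With the covariate for Xist counts the log2 fold change was 0.27 and with limma-voom 0.65, AHRmko-34 kept in both.

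Of the 8 members tested between genotypes, excluding Atf3 and Socs3, 0 passed an adjusted p of 0.05 (edgeR, quasi-likelihood), where 0.0068% of all genes did. None had an unadjusted p under 0.05 (0 of 8, against 6.61% of all genes tested), and DESeq2 and limma-voom likewise gave 0 on both criteria. Over all genes DESeq2 called 0.136% and put 6.91% at an unadjusted p under 0.05, and limma-voom 0.0068% and 6.74%. The genotypes overlapped in all 10 members, whereas 1.4% of all genes did not overlap. The median log2 fold change of the 8 was 0.02, with 4 higher and 4 lower in AHRmko, against 0.01 over all genes. Leaving out AHRmko-34 gave a median of -0.29, with 2 higher and 6 lower. Leaving out AHRfl-12 gave a median of 0.34, with 8 higher and 0 lower. Without AHRfl-11, AHRfl-15 or AHRfl-33 the median was between -0.18 and -0.13. In the fit without AHRmko-34 the adjusted p of the 8 was at least 0.849. In that fit 0.0401% of 14962 genes were called and 7.61% had an unadjusted p under 0.05. The intervals of Fos, Fosb, Junb and Egr1 reach beyond 1 log2 unit on both sides. Changes of 1 log2 unit in either direction are thus not excluded for these genes with 5 mice per genotype.

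**Figure D2:**
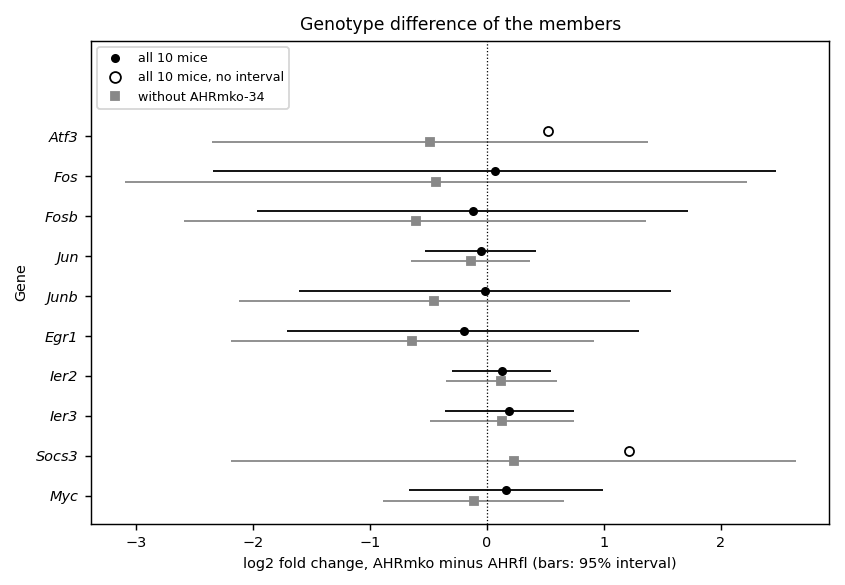
Log2 fold change of each member, AHRmko minus AHRfl, with 95% intervals from edgeR, as black circles for all 10 mice and grey squares without AHRmko-34, and open circles without intervals for Atf3 and Socs3 over all mice. Each interval includes 0, and the intervals of Jun, Ier2, Ier3 and Myc are the narrowest.

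The spread was measured as the standard deviation (SD) of log2 CPM about the genotype means and ranked among all 14714 genes, whose median SD was 0.21. Socs3 had an SD of 1.74 and Fos of 1.73, both at percentile 99.9. Atf3 (1.49) and Fosb (1.43) were at percentile 99.8, Egr1 (1.14) at 99.5 and Junb (1.08) at 99.3. Myc (0.64) was at percentile 94.1, and Ier3 (0.46), Jun (0.37) and Ier2 (0.35) at 84.0, 75.1 and 72.3. Thus 7 of the 10 were among the 10% of genes with the largest spread, and Jun, Ier2 and Ier3 were not. The ranking did not need the value that chose Atf3 and Socs3. Without AHRmko-34 their SDs were 1.23 and 1.49, at percentiles 99.7 and 99.9, and without both AHRmko-34 and AHRfl-12 they were 1.29 and 1.27, both at 99.8.

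**Figure D3:**
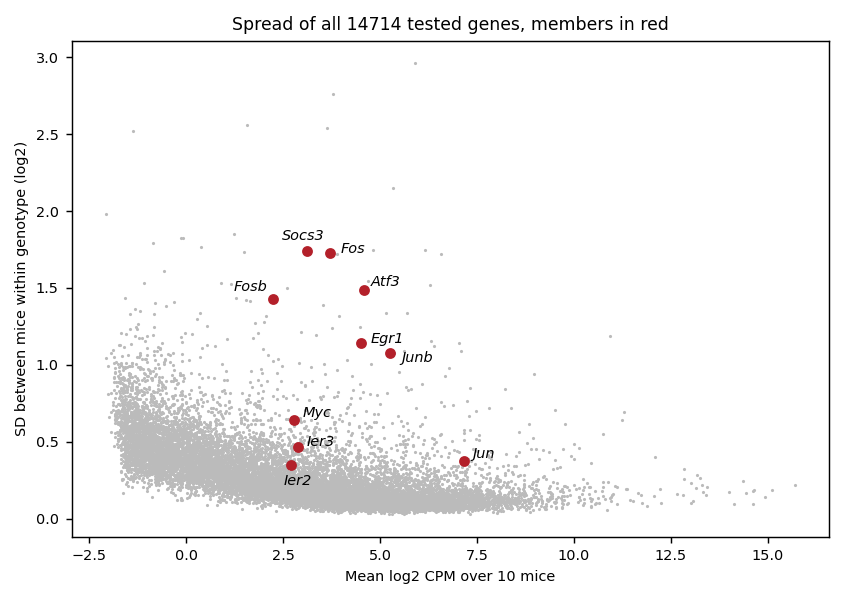
SD between mice within genotype against the mean log2 CPM over 10 mice for the 14714 genes tested (grey) and the 10 members (red). Socs3, Fos, Atf3, Fosb, Egr1 and Junb lie far above genes of similar level, with SDs of 1.08 to 1.74, and Ier2, Ier3 and Jun lie between 0.35 and 0.46.

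Levels were compared between members only after scaling CPM by exon length. The median was 40.5 CPM per kb for Jun, 13.9 for Junb, 9.48 for Atf3, 6.31 for Ier3, 6.03 for Fos, 5.14 for Egr1, 4.39 for Ier2, 2.33 for Socs3, 2.23 for Myc and 0.671 for Fosb. The ranges over the 10 mice overlapped for each neighbouring pair in this order, Jun spanning 33.3 to 63.7 CPM per kb and Junb 8.36 to 55.1.

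AHRfl-12 and AHRmko-34 were above the 10-mouse mean for all 8 members other than Atf3 and Socs3, where 50.6% and 48.6% of all genes tested were above it in these mice. AHRfl-12 was the highest mouse for 6 members (Fos, Fosb, Jun, Junb, Egr1 and Ier2), and 15.9% of all genes tested were highest in it. For the 8 members not noted beforehand AHRmko-34 was the highest for 1 (Myc), where 10.9% of all genes were highest in it, the second for 5 and the third for 2. Together the pair held the highest value of 7 of these 8, where 26.8% of all genes were highest in either. That AHRmko-34 was also the highest for Atf3 and Socs3 was fixed by their choice. At the other end, over all 10 members, AHRfl-15 was lowest for 5, Atf3 and Socs3 among them, and lowest or second lowest for 8. AHRfl-11 and AHRfl-15 were above the mean for 0 of the 10. The shares of all genes for these low ranks are not given. Over the 8 members other than Atf3 and Socs3 the median deviation from the 10-mouse mean, in log2 CPM, was 1.10 in AHRmko-34, 1.07 in AHRfl-12, 0.49 in AHRfl-13, 0.18 in AHRmko-19 and -0.75 in AHRfl-15, and the other 5 mice lay between -0.51 and 0.09.

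**Figure D4:**
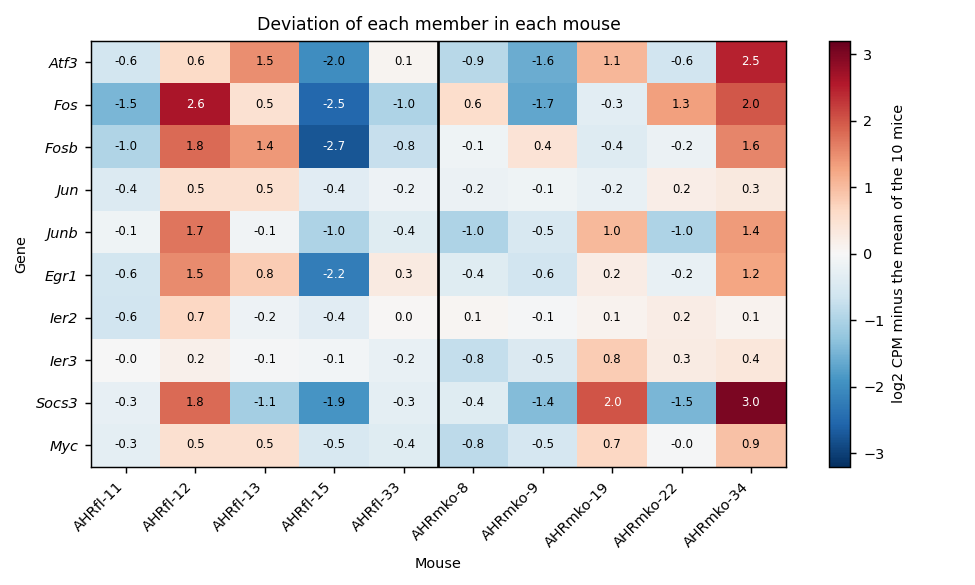
Log2 CPM of each member minus its mean over the 10 mice, from blue (below) to red (above), with AHRfl mice left and AHRmko mice right of the line. The columns of AHRfl-12 and AHRmko-34 are red throughout, with deviations of up to 2.62 and 3.01, and that of AHRfl-15 is blue throughout, down to -2.74.

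The high mice were not alike in which members were highest. Fos was 80.0 CPM in AHRfl-12 and 51.3 in AHRmko-34, whereas Myc was 9.81 and 13.2 CPM. Atf3 was 36.6 and 130 and Socs3 30.1 and 69.6 CPM in these mice. That AHRmko-34 was above AHRfl-12 for Atf3 and Socs3 was fixed by the choice of these genes. AHRmko-19 was high for Socs3, Junb, Atf3, Myc and Ier3, at 7.13, 3.40, 3.49, 1.90 and 1.81 times the median of the other AHRmko mice. For Fos, Fosb and Jun the same mouse was at 0.401, 0.664 and 0.815 times that median. AHRfl-13 had the opposite pattern in part, with 202 CPM of Jun and 12.6 of Fosb but 4.01 of Socs3.

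Several library measures moved with the pattern. The TMM factor was lowest in AHRfl-12 (0.9506) and AHRmko-34 (0.955), against 0.9695 to 1.066 in the other 8 mice. A lower factor raises every CPM of a library. The share of counts from mitochondrial DNA genes was lowest in AHRfl-12 (7.34%) and AHRmko-34 (8.35%), the other 8 mice having 9.71% to 11.5%, and the number of genes with at least 3 counts was also lowest there (17823 and 17554, against 18018 to 20130). The summed muscle fibre markers were highest in both, at 133000 CPM against 99300 to 121000, but its members did not move together. Myh4, the myosin of the fastest fibres, was at 66500 and 63900 CPM in AHRfl-12 and AHRmko-34 against 41400 to 57700 in the other 8, whereas Myh1 was at 1250 and 1230 against 1770 to 4730. Myh2, the myosin of fast oxidative fibres, was at 297 and 1170 CPM against 1610 to 4220, so that both were lowest in these mice. The 5 endothelial markers were lowest, at 116 CPM in AHRfl-12 and 129 in AHRmko-34 against 131 to 230, and the 4 smooth muscle markers were 251 and 247 against 249 to 452. The 6 neutrophil markers were 4.33 and 5.32 CPM against 1.76 to 6.68, and the 7 macrophage markers 40.4 and 44.5 against 25.0 to 60.9, so that both mice lay within the range of the other 8. AHRmko-34 alone was lowest for Schwann cell markers (18.8 CPM, against 67.9 in AHRfl-12 and 24.9 to 77.0 in the others), tendon markers (97.6, 159 and 116 to 414) and adipocyte markers (6.31, 20 and 7.99 to 54.2). AHRfl-12 alone was lowest for erythroid markers (98.1 CPM, against 133 in AHRmko-34 and 102 to 454 in the others). No marker in these lists was at 0 in every mouse. The 8 members other than Atf3 and Socs3 were all highest in 1 of the 5 libraries with at most 3 Xist counts, as were 59.4% of all genes. The median deviations of those libraries over the 8 ran from -0.30 to 1.10 and those of the 5 with 44 or more Xist counts from -0.75 to 0.09. The part of these measures in the result was not tested.

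Those sets of libraries hold only 2 or 3 mice of a genotype. Within them the difference in mean log2 CPM (AHRmko minus AHRfl) took opposite signs for most members. The signs were the same only for Atf3, Junb and Ier3. For Fos it was -0.81 among libraries with at most 3 Xist counts and 1.48 among the others, and for Fosb it was -1.26 and 1.59. For Socs3 the values were 1.18 and -0.62, and for Atf3 -0.18 and -0.27. The first value of each includes AHRmko-34, the mouse whose levels chose these genes. With a covariate for Xist (more than 3 counts or not), an alternative added after seeing the data, the log2 fold changes of the 8 tested members lay between -0.30 and 0.48, with adjusted p of at least 0.914 in edgeR.

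The members varied together across mice. All 45 pairs had a positive Pearson r of log2 CPM over the 10 mice, with a median of 0.64 and a range of 0.15 to 0.91, and the points share libraries and depth. The median was 0.66 after centring on the genotype means, 0.61 without AHRmko-34, 0.49 without AHRmko-34 and AHRfl-12, and 0.50 after centring on the libraries with and without Xist counts. The 17 pairs that include Atf3 or Socs3 hold the values that chose those genes and are given without a test. The 28 pairs of the other 8 members were tested by permutation with Benjamini-Hochberg adjustment over the 28. Of these, 11 had an adjusted p under 0.05 for r, 3 for Spearman's rho and 3 for both, namely Fosb with Jun, Ier3 with Myc and Fos with Ier2.

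By Pearson r the closest pair was Junb and Socs3 (r = 0.91, rho = 0.85), as a description. By rho other pairs were closer, Ier3 with Myc the most (0.92). For Junb and Socs3, r was 0.85 without the 2 mice farthest from the median of Junb and 0.90 without AHRmko-34. Atf3 followed Myc (r = 0.89, rho = 0.87) and Egr1 (r = 0.86, rho = 0.87). Without AHRmko-34 these correlations were 0.84 and 0.85. Fosb and Jun had r = 0.84 and rho = 0.89 (permutation p = 0.00138 and 0.00101, adjusted 0.0193 and 0.0141), and r was 0.84 without the mice farthest from the median of Fosb and 0.73 without those farthest from the median of Jun. Fos and Ier2 had r = 0.78 and rho = 0.84 (permutation p = 0.00565 and 0.00372, adjusted 0.0198 and 0.0347), and r fell to 0.58 without AHRfl-12 and AHRfl-15. Ier3 followed Myc with r = 0.81 and rho = 0.92 (permutation p = 0.00318 and 0.00053, adjusted 0.0197 and 0.0141; r = 0.74 without AHRmko-8 and AHRmko-19), but Fosb only with r = 0.15. Fos and Junb had r = 0.58, which fell to 0.24 without AHRfl-12 and AHRfl-15 and to -0.02 without AHRmko-34 and AHRfl-12. This relation thus rested on few mice.

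**Figure D5:**
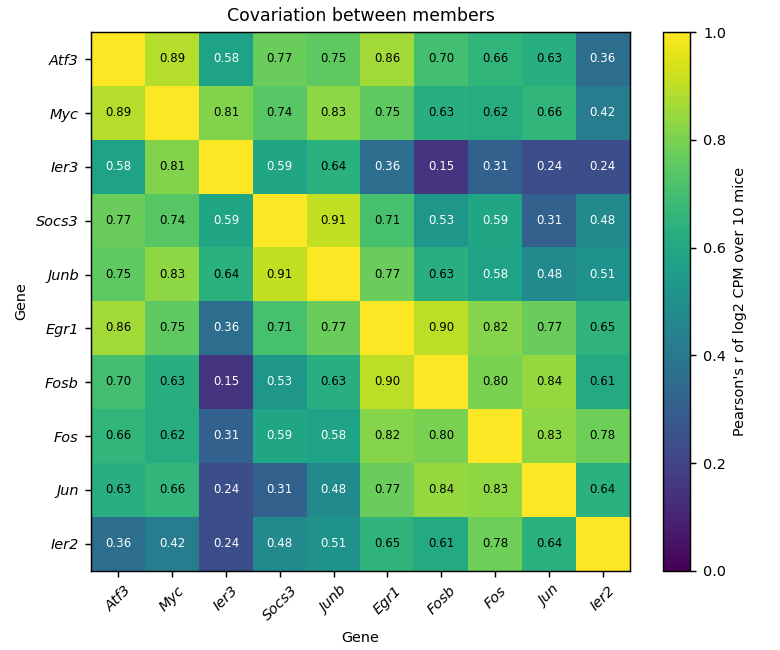
Pearson r of log2 CPM over 10 mice for the 45 pairs of members, from dark (0) to yellow (1). Correlations are 0.77 to 0.90 among Fosb, Egr1 and Jun and 0.89 for Atf3 with Myc, highest for Junb with Socs3 (0.91), and lowest for Ier3 with Fosb (0.15).

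The genes whose level followed the mean of the standardised members most closely, among 12122 non-member genes with a mean of at least 1 CPM, were Myf6 (r = 0.97), Nop58 (0.96), Bccip (0.96), Gcat (0.95) and Thop1 (0.95), and then Tars, Vars, Csrnp1, Podxl2 and Mafg (all 0.94). Myf6 encodes a myogenic factor of mature fibres and varied from 89.8 to 287 CPM. Csrnp1 is itself an immediate early gene and varied from 5.29 to 27.9 CPM, both being highest in AHRmko-34. For Atf3 alone the nearest genes were Xirp1 (r = 0.94), a protein of muscle attachment sites at 146 CPM in the lowest and 870 in the highest mouse, and Hbegf (0.93), Trib1 (0.93), Habp2 (0.92) and Fam114a2 (0.91). For Socs3 they were the metallothioneins Mt2 (0.95) and Mt1 (0.93), then Gm45774 (0.94), Sat1 and Srxn1 (0.93 each). Gm45774 lies antisense across Mt2, and their reads cannot be told apart without the strand setting. These correlations were picked as the highest of many and carry no test.

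Other genes of the immediate early class gave a like picture on a smaller scale. Of 44 further genes of this kind, 43 could be tested (not Egr4) and 0 were called between genotypes by edgeR, DESeq2 or limma-voom. An unadjusted p under 0.05 was found for 0 in edgeR and 1 in DESeq2. Of all genes, edgeR and limma-voom each called 0.0068% and DESeq2 called 0.136%, and 6.61% (edgeR) and 6.91% (DESeq2) had such an unadjusted p. Their median log2 fold change was 0.01, with 22 higher and 21 lower. The lowest unadjusted p belonged to Dusp1 (log2 fold change 0.37, adjusted p = 0.787, edgeR), the phosphatase that ends MAP kinase signals, followed by Zfp36l1 (0.26) and Maff (-0.46). AHRfl-12 was highest for 15 and AHRmko-34 for 11 of the 43, together 60.5%, against 26.8% of all genes. The median percentile of their SD was 89.5, and 21 of the 43 were in that top 10%. Fosl2, for example, stood at 80.7 CPM in AHRfl-12 and 57.1 in AHRmko-34 and at 14.8 in AHRfl-15.

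Genes upstream or downstream of the members were not called between genotypes in any list. Among 21 regulators of the serum response, CREB and MAP kinase routes, 0 were called and 4 had an unadjusted p under 0.05 (6.61% of all genes did), the lowest being Crtc1, a CREB coactivator (log2 fold change 0.31, SE 0.0925, adjusted p = 0.606, edgeR), then Elk1 (0.29) and Elk4 (-0.28). Among 18 tested genes of the cytokine and STAT3 axis that SOCS3 inhibits, 0 were called and 1 had an unadjusted p under 0.05. This was Stat3, at 47.0 ± 2.78 CPM in AHRfl and 61.0 ± 12.6 CPM in AHRmko (SD, n = 5 each), with a log2 fold change of 0.38 (SE 0.117, adjusted p = 0.606) and its 2 highest levels in AHRmko-19 (80.2 CPM) and AHRmko-34 (66.7 CPM). Il6 and Lif had too few counts to be tested, with at most 11 and 12 counts in any mouse. Of the 12 tested partners of AP-1 and the 6 tested partners of MYC, 0 were called and 0 had an unadjusted p under 0.05. The median SD percentile was 34.7 for the upstream regulators, 63.0 for the AP-1 partners and 33.6 for the MYC partners, against 96.7 for the 8 members other than Atf3 and Socs3.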

How the data were processed

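Per the labels and the methods of the study, the authors prepared poly(A)-selected paired-end libraries, trimmed with Trimmomatic 0.36 and aligned with STAR 2.5.2b to GRCm38, and counted uniquely mapped reads on exons with featureCounts. The deposited table holds raw counts per Ensembl gene, 1 column per mouse, not normalised. The Ensembl release and the strand setting are not given in the sources used here. All 10 columns were used, and 0 were left unmapped.

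Symbols were found for 48970 of 49315 identifiers, and positions came from GENCODE M21. The genotypes were compared with edgeR 4.0.16 under R 4.3.3 (filterByExpr at 10 counts and 15 in total, TMM, robust quasi-likelihood test, Benjamini-Hochberg adjustment over 14714 genes). A prior count of 2 was used for log2 CPM, and 95% intervals were taken from the fit. Exact permutation tests covered 252 assignments, with a smallest p of 0.00794, and correlations were tested with 100000 permutations for the 28 pairs without Atf3 and Socs3. Scripts were tested on simulated data.

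The members and gene lists were chosen with earlier results of these data known. All 10 members are named, and of each further list the up to 3 genes with the lowest unadjusted p, besides the nearest genes by correlation (10 to the mean of the members, 5 each to Atf3 and Socs3). Fosl2, Il6, Lif, the myosin genes and the stress genes Hspa1a, Hspa1b, Atf4 and Ddit4 were named after their values were seen. Alternatives were DESeq2 1.42.0, limma-voom (limma 3.58.1), other normalisations, filters and thresholds, and leaving out each mouse. Another 2, a covariate for Xist counts and leaving out both AHRfl-12 and AHRmko-34, were chosen after seeing the data. The labels state separate mice but not litters. The floor of 3 counts was 0.079 to 0.0987 CPM per library and covers counting error only, as reads carry no molecular identifiers.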

Additional observations from a re-analysis of the deposited data

How the results depend on the processing

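None of the 8 members tested over all mice was called by edgeR, DESeq2 or limma-voom, under any normalisation, filter or threshold tried, or with any mouse left out, but the direction of most genotype differences depended on single mice. Across the fits that each omit 1 mouse, the log2 fold change ranged from -0.44 to 1.57 for Fos, -0.61 to 0.48 for Fosb, -0.45 to 0.71 for Junb and -0.64 to 0.27 for Egr1, the lowest without AHRmko-34 and the highest without AHRfl-12. It ranged from -0.16 (without AHRfl-11) to 0.0806 (without AHRfl-12) for Jun, from -0.0262 (without AHRmko-19) to 0.35 (without AHRmko-8) for Ier3 and from -0.11 (without AHRmko-34) to 0.33 (without AHRmko-8) for Myc. Atf3 ranged from -0.49 to 1.05 and Socs3 from 0.23 to 2.20. With limma-voom Fosb was at 0.49, Fos at 0.74 and Egr1 at 0.0796. Fosb was at 0.10 with the Xist covariate, and Junb at 0.27 and Fos at 1.06 with AHRfl-12 and AHRmko-34 both left out. The cause was not tested. The number of the 8 members with an unadjusted p under 0.05 was from 0 to 1 with each mouse left out, and 1 with AHRfl-12 and AHRmko-34 both left out. The 1 was Ier2, with adjusted p of 0.671 and 0.674 in edgeR. Of all genes, 6.61% had such an unadjusted p with all mice and 7.61% without AHRmko-34. The share is not given for the fits without AHRfl-12, so the count of 1 is not set against it. Over the whole table, 1 gene was called by edgeR, 20 by DESeq2, 5 with no filter on low counts, 2 without both high mice and from 1 to 6 with each mouse left out, the 6 without AHRmko-34. The median r over pairs of members stayed between 0.61 and 0.70 with each mouse left out. Atf3 and Socs3 included, AHRmko-34 was the highest mouse for 3 members under library-size and DESeq2 scaling. No paired analysis was possible because the mouse numbers do not repeat between genotypes. Each member had at least 23 counts in every mouse.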

Other observations

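Some other stress genes had their highest values in AHRfl-12 or AHRmko-34, in lists that were chosen with earlier results of these data known, with the genes named here picked after their values were seen. Of 10 heat shock genes 8 were highest in either mouse, but of 12 tested genes of the integrated stress response only 2 were (Atf4 and Ddit4), where 26.8% of all genes were. The inducible heat shock genes Hspa1a and Hspa1b were at 105 and 75.4 CPM in AHRmko-34 and next highest in AHRfl-12, at 25.5 and 25.6 CPM, with the other 8 mice between 4.4 and 19.4 CPM for Hspa1a and between 3.40 and 20.5 CPM for Hspa1b. These near-identical copies can share reads, so the division between them is uncertain. Their SDs were at percentiles 99.7 and 99.8. The metallothioneins Mt1 and Mt2, which bind zinc and copper, were high in the mice in which Socs3 was high: Mt1 stood at 154, 117 and 104 CPM in AHRmko-34, AHRmko-19 and AHRfl-12, and between 15.4 and 29.0 CPM in the other 7. Mt2 was highest in AHRmko-19 (130 CPM), followed by AHRmko-34 (120 CPM).

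Of 10 heat shock genes, 0 were called between genotypes by edgeR and 1 had an unadjusted p under 0.05 (2 by DESeq2, where 6.61% and 6.91% of all genes did), namely Dnajb1 (log2 fold change 0.45, adjusted p = 0.665). Of 12 tested genes of the integrated stress response, 0 were called and 1 had an unadjusted p under 0.05 (3 by DESeq2), namely Ppp1r15a (-0.38, adjusted p = 0.665). Of 13 tested genes of muscle damage and denervation, 0 were called and 4 had an unadjusted p under 0.05 by both tools (6.61% of all genes in edgeR and 6.91% in DESeq2), led by the myogenic factor Myod1 (0.59, adjusted p = 0.606). Of 10 clock and glucocorticoid genes, 0 were called and 2 had an unadjusted p under 0.05 by both tools, led by Per2 (0.85, adjusted p = 0.606), which was highest in AHRmko-22 and AHRmko-19.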
